A study of Mus musculus with 12 samples.

Results

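The insulin-like growth factor (IGF) genes described here are 10 members chosen by gene symbol, out of 24062 symbols counted in whole mouse kidneys. They are the ligands Igf1 and Igf2, the receptors Igf1r and Igf2r, the adaptor Irs1, and the binding proteins Igfbp2, Igfbp3, Igfbp4, Igfbp5 and Igfbp7. The question put to the data was whether the rest of the IGF system moved along with Igf2 when Lin28 was raised or part of the let-7 family was removed. RNA was sequenced from 12 kidneys at postnatal day 3 (P3), 3 kidneys in each of 4 groups and from 2 litters per group. The first pair of groups was on the C57BL/6 strain: kidneys labelled LIN28OE, called LIN28B Wt1 here after the study, carried an inducible human LIN28B transgene switched on by doxycycline in cells with Wt1-Cre, and their wild-type (WT) littermates served as controls. The other pair was on a mixed CD1 and C57BL/6 strain: let-7 KO kidneys lacked let-7a-1, let-7d and let-7f-1 in every cell from conception, and were set against WT littermates of the same mix. The study induced LIN28B Wt1 animals with a short pulse of doxycycline late in gestation, although its sequencing methods do not restate the timing for these litters. It calls the 3 kidneys of a group biological replicates, and the p-values measure the spread between them.

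IGF1 and IGF2 are secreted growth factors that signal through the receptor tyrosine kinase IGF1R, with IRS1 as one of the docking proteins inside the cell. IGF2R binds IGF2 and carries it to lysosomes, so it lowers the ligand without signalling for growth. The binding proteins hold IGFs outside cells, prolonging their life or keeping them from receptors; IGFBP7 binds IGFs only weakly. Igf2 is imprinted, is read from the paternal copy, is high in the fetus and falls after birth. Lin28 proteins block the maturation of let-7 microRNAs, which pair through bases 2 to 8 of their own sequence (the seed) with sites in the 3′ UTRs of target mRNAs.

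The mature sequences of the 3 deleted let-7 genes are shown because they share 1 seed, which defines what counts as a match in the IGF genes. They lie on the minus strand of chr13 (GRCm38, sequences from RefSeq), between 48536078 and 48538260, and the capitals mark the seed.
let-7a-5p: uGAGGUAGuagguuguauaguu
let-7d-5p: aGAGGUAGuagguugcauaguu
let-7f-5p: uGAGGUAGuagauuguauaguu

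A search of the longest annotated 3′ UTR of each gene (GENCODE M21 on GRCm38, sense strand) for CTACCTC, CTACCTCA or TACCTCA, where the 8-base motif holds both 7-base ones and counts once, found a match in 5 of 9 members: Igf2, Igf1r, Igf2r, Igfbp5 and Irs1. Igfbp2, Igfbp3, Igfbp4 and Igfbp7 held none in the whole 3′ UTR searched. Over all protein-coding genes with a 3′ UTR, 16.2% of 21103 held a match, and the share grew with length, from 13.1% of UTRs of 500 to under 2000 bases to 28.3% of those of 2000 to under 4000 and 49.8% of longer ones. Igf2 has a 3′ UTR of 3050 bases with 1 match, present in 4 of its 5 annotated transcripts with a 3′ UTR. Windows of 30 bases around the matches of Igf2 and both receptors are shown so that the Igf2 match, which lacks the leading C, can be set beside the full 8-base ones; capitals mark the matching bases, and Igf1r holds 3 matches, of which the 8-base one is given. The windows run 5′ to 3′ along the mRNA, at chr7:142651439-142651468 (minus strand) for Igf2, chr7:68229114-68229143 (plus) for Igf1r and chr17:12683025-12683054 (minus) for Igf2r.
Igf2: ggctggaggttTACCTCAcccccacttctg
Igf1r: caaacatttatCTACCTCActcttgttttt
Igf2r: tgctccgtgccCTACCTCAtctctgtagtt

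Counts per kidney summed to between 39926235 and 61872736, so that 3 counts equal 0.0485 to 0.0751 counts-per-million (CPM), and every member passed the filter on low counts in both models. Values below are CPM scaled by TMM factors. Reads under mouse Lin28b, which could hold reads of the human transgene, numbered 232, 224 and 71 in LIN28B Wt1 kidneys against 0, 18 and 33 in their littermates. Reads under Mirlet7d were 0 in all 3 let-7 KO kidneys, and 0, 19 and 35 in theirs. A let-7 target known from many tissues, Hmga2, was at 207, 206 and 156 CPM in LIN28B Wt1 kidneys against 12.4, 14.5 and 16.4. The let-7 KO kidneys had 12.3, 21.8 and 31.6 CPM of it against 9.68, 7.72 and 10.5. The 8 nephron progenitor markers summed to 420 to 581 CPM in LIN28B Wt1 kidneys against 180 to 213, and to 176 to 194 in let-7 KO kidneys against 128 to 202, where Itga8 alone, the 1 marker of the 8 with a negative log2 fold change (-0.32), averaged 88.3 against 109 CPM. The other 7 had positive let-7 KO differences that did not pass edgeR's adjusted threshold, and the list's median was 0.786. Among them were Gdnf at 2.20 and Cited1 at 1.12, both higher in every mutant than in every control kidney, as were 7.87% of all genes. Eya1 at 1.65 and Six2 at 0.94 had overlapping groups. In a whole kidney, fewer cells of a type and less RNA per cell cannot be told apart.

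In LIN28B Wt1 kidneys, Igf2 rose and Igfbp7 fell, and these were the 2 of the 10 members called at an adjusted p below 0.05 by edgeR's quasi-likelihood test with Benjamini-Hochberg adjustment over 15793 genes. Over all genes that threshold was passed by 1.23%, 0.462% higher and 0.766% lower. DESeq2 called 6 members, where it called 8% of all genes. At an unadjusted p below 0.01, the threshold of the study's own lists, 6 members passed, Igf2, Igf2r and Igfbp2 higher and Igf1, Igfbp3 and Igfbp7 lower, where 7.33% of all genes passed, 3.25% higher and 4.08% lower. Every LIN28B Wt1 kidney lay above every littermate for 4 members (Igf2, Igf2r, Igfbp2, Igfbp5) and below for 3 (Igf1, Igfbp3, Igfbp7), against 10.3% of all genes above and 13.5% below. The median absolute log2 fold change was 0.584 over the members and 0.314 over all genes tested, while the signed medians were 0.0874 and -0.0162. Among let-7 KO kidneys no member was called by edgeR and 1, Igf2, by DESeq2, where edgeR called 0.0194% and DESeq2 1.52% of 15500 genes. Unadjusted, 2 members had an edgeR p below 0.05, where 10.8% of all genes did, and 1 member, Igf2, had an unadjusted p below 0.01, where 2.73% of all genes did (1.1% higher, 1.63% lower). All let-7 KO kidneys lay above all littermates for Igf2 and Igfbp2 and below for none, against 7.87% of genes above and 8.79% below, and the median absolute log2 fold change of the members, 0.332, was close to that of all genes, 0.323.

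**Figure D1:**
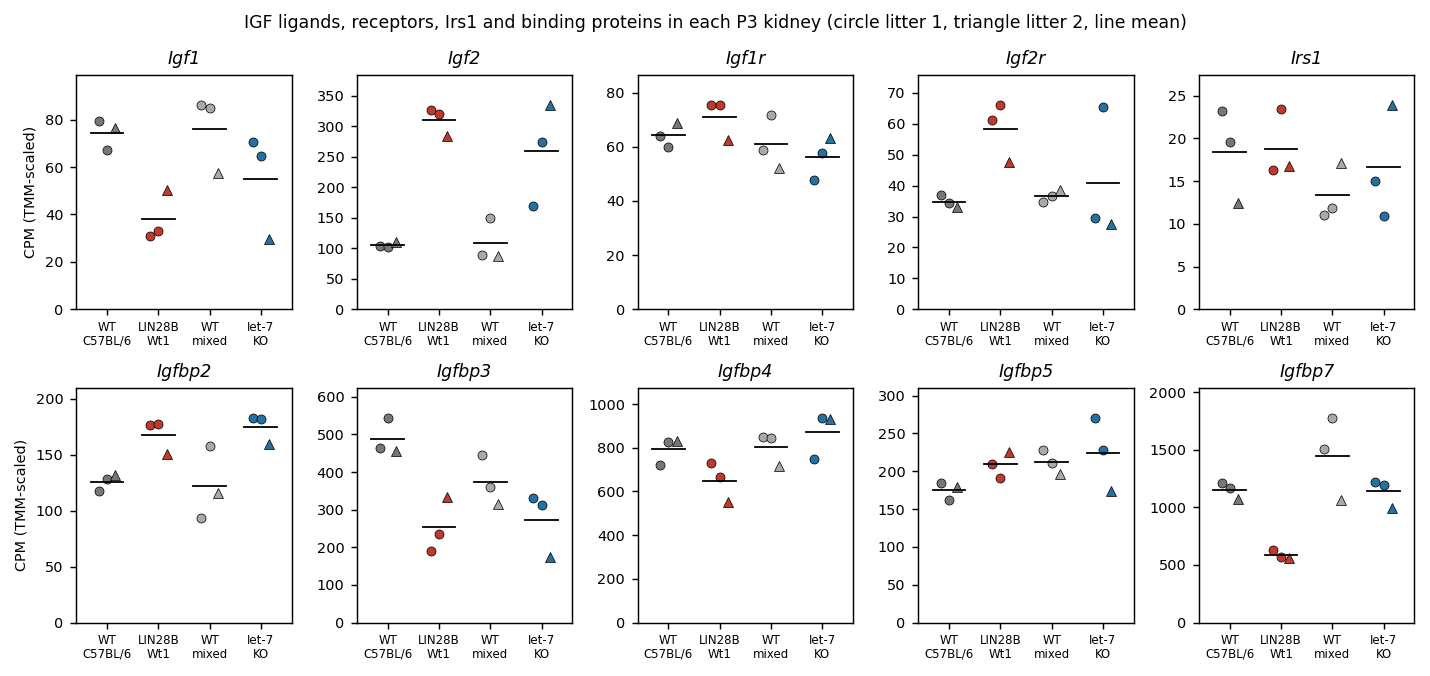
CPM of the 10 members in each of the 12 kidneys, by group, with circles for litter 1, triangles for litter 2 and a line at the group mean. Igf2 lies between 283 and 326 CPM in LIN28B Wt1 kidneys and between 103 and 110 in their littermates, whereas Igf1r and Irs1 overlap between every mutant group and its controls.

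Of the ligands, Igf2 (chr7:142650766-142666816, minus strand, on mm10, the build of all positions here) was at 326, 320 and 283 CPM in the LIN28B Wt1 kidneys and at 104, 103 and 110 CPM in their littermates. The groups were far apart and the control kidneys nearly alike. Igf2 rose 2.94-fold, a log2 fold change of 1.56 ± 0.12 (SE, n = 3 per group), with an adjusted p of 0.000938 by edgeR's quasi-likelihood test, and the call held in each of the 6 fits that left out 1 kidney. The let-7 KO values of Igf2 were 169, 275 and 334 CPM against 89.2, 150 and 86.6 CPM. All 3 mutant kidneys were above all 3 controls, but both groups were widely spread and the lowest mutant stood close to the highest control. The log2 fold change was 1.23 ± 0.28, with an unadjusted p of 0.00135 and an adjusted p of 0.345 by the same edgeR test. With a term for each kidney's dependence of counts on transcript length, it was 0.69, with an edgeR p below 0.01 before and of 0.452 after adjustment. That slope was lowest in the let-7 KO kidney with the most Igf2, library 36, at -0.137. Its highest value over all kidneys was 0.0952, in library 30 of the LIN28B Wt1 group. The part of transcript length in the Igf2 difference was not tested. By DESeq2 the let-7 KO change was 1.26 with an adjusted p of 0.00193.

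Igf1, the ligand that takes over much of postnatal growth, lay on the other side. This gene (chr10:87858265-87937042, plus strand) was at 30.8, 33.2 and 50.3 CPM in LIN28B Wt1 kidneys and at 79.3, 67 and 76.6 CPM in their littermates. No kidney of one group reached the other. The log2 fold change was -0.96 ± 0.21 with an edgeR adjusted p of 0.0636. Without the LIN28B Wt1 kidney of litter 2 (library 30), the highest of its group, it was -1.22 with an edgeR adjusted p of 0.00303. That fit kept LIN28B Wt1 kidneys of a single litter. In it, edgeR called 2074 genes, against 194 in the full fit. The let-7 KO kidneys had Igf1 at 70.6, 64.6 and 29.5 CPM against 86.1, 85 and 57.6 CPM. The lowest value came from library 36, the kidney with the highest Igf2, and the groups overlapped. The log2 fold change was -0.49 ± 0.32 with an edgeR adjusted p of 0.605.

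Within each kidney, the ratio of Igf2 to Igf1 reads joins both ligands in 1 value that does not depend on library size. It was 1.31, 1.53 and 1.44 in C57BL/6 littermates and 10.6, 9.66 and 5.63 in LIN28B Wt1 kidneys. Mixed-strain littermates had 1.04, 1.76 and 1.5, and let-7 KO kidneys 2.39, 4.26 and 11.3. Both mutant groups were wholly above their controls, and the let-7 KO group ranged from just above its controls to the highest value in the series. The exons of Igf1 and Igf2 cover 9904 and 5723 bases, so this ratio can depend on the transcript-length slope. In the order above, that slope was 0.0867, 0.0511 and -0.025, then -0.0476, -0.0319 and 0.0952. For the mixed-strain pair it was 0.0363, -0.0475 and 0.0924, then 0.0191, -0.0921 and -0.137. Its part in the ratio was not tested. On the log2 scale the ratio differed by 2.55 and 1.80, each with a two-sided exact permutation p of 0.1, the smallest that 3 kidneys against 3 can give. In LIN28B Wt1 kidneys that p was fixed beforehand, because Igf2 and Igf1 were each already separate from the controls, in opposite directions. It adds nothing there to the results of the single genes.

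**Figure D2:**
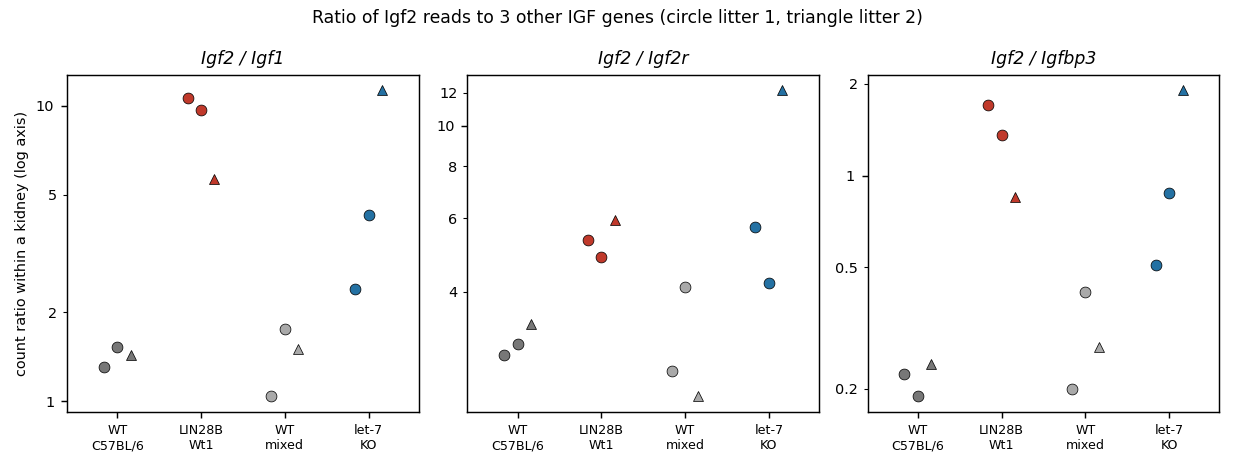
Ratio of Igf2 reads to Igf1, Igf2r and Igfbp3 reads within each kidney, on log axes, with circles for litter 1 and triangles for litter 2. The Igf2 to Igf1 ratio is 1.04 to 1.76 in the 6 WT kidneys, 5.63 to 10.6 in LIN28B Wt1 kidneys and 2.39 to 11.3 in let-7 KO kidneys.

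Of the receptors, Igf2r (chr17:12682406-12769664, minus strand), which clears IGF2, was at 61.3, 66 and 47.6 CPM in LIN28B Wt1 kidneys and at 36.9, 34.3 and 33 CPM in their littermates. The groups did not overlap, and library 30 was again the nearest to the controls. The log2 fold change was 0.75 ± 0.17, with an edgeR adjusted p of 0.0685. Without library 30, in the fit where 2074 genes were called against 194, it was 0.87 with an edgeR adjusted p of 0.00834. The rise of Igf2 was the larger of the 2 differences, so that the Igf2 to Igf2r read ratio was 5.32, 4.85 and 5.94 against 2.81, 2.99 and 3.34. Igf2r levels in let-7 KO kidneys were 29.6, 65.5 and 27.5 CPM against 34.6, 36.5 and 38.7 CPM. Library 35 was the highest of the 6 and the other two mutants were the lowest, and the log2 fold change of 0.14 ± 0.32 became -0.37 without that kidney. The Igf2 to Igf2r ratio there was 5.7, 4.2 and 12.2 against 2.58, 4.1 and 2.24. Reads of Igf2r and of Airn, the antisense RNA that starts inside it, cannot be told apart where they overlap, because the library kit does not mark strand. Shared bases limit Igf2 in the same way, with Igf2os and the same-strand gene model Gm49394, and likewise Igf1 with Igf1os, Igfbp7 with Polr2b and Gm34648, and Irs1 with Gm9747.

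Igf1r (chr7:67952827-68233668, plus strand), the signalling receptor, was at 75.4, 75.4 and 62.4 CPM in LIN28B Wt1 kidneys against 63.9, 59.9 and 69 CPM, and at 47.9, 57.9 and 63.1 CPM in let-7 KO kidneys against 58.7, 71.9 and 52.1 CPM. Mutant and control kidneys overlapped in both models. The log2 fold changes were 0.15 (95% interval -0.19 to 0.48) and -0.13 (-0.59 to 0.32). This gene has the most let-7 seed matches of those 9 members, which is 3, and also the longest 3′ UTR of the 9, at 7267 bases. Irs1 (chr1:82233101-82291416, minus strand), the adaptor, was the lowest member per length, at 16.3, 23.4 and 16.7 CPM in LIN28B Wt1 kidneys against 23.2, 19.6 and 12.5 CPM. Its log2 fold change was 0.03 with an interval from -0.59 to 0.65. For let-7 KO kidneys the Irs1 values were 15.1, 10.9 and 23.9 CPM against 11, 11.9 and 17.1 CPM, with a difference of 0.30 (-0.49 to 1.09). The interval of Irs1 was the wider of the 2 genes in both models, so larger differences lie within its error.

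Among the binding proteins, Igfbp7 (chr5:77349240-77408041, minus strand) was the most abundant member per kb of exon in all 4 groups. It was at 629, 573 and 558 CPM in LIN28B Wt1 kidneys and at 1216, 1167 and 1074 CPM in their littermates. The kidneys within each group were close together and the groups were clearly separate. Igfbp7 fell by 0.97 ± 0.11 on the log2 scale, with an adjusted p of 0.00605 by edgeR's quasi-likelihood test. Its adjusted p was 0.0659 without library 25, 0.0804 without library 28 (both controls) and 0.0501 without library 27 (LIN28B Wt1), in edgeR fits where the number of genes called also dropped from 194 to 27, 21 and 46. The let-7 KO values of Igfbp7 were 1224, 1198 and 995 CPM against 1511, 1773 and 1067 CPM. The groups overlapped and the log2 fold change was -0.37 ± 0.21, with an edgeR adjusted p of 0.549.

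Igfbp3 (chr11:7206086-7213923, minus strand), the main carrier of IGFs in blood, was at 191, 236 and 334 CPM in LIN28B Wt1 kidneys and at 463, 543 and 455 CPM in their littermates. The highest mutant, library 30, stayed below the lowest control. The log2 fold change was -0.94 ± 0.20 with an edgeR adjusted p of 0.0603. Without library 30, in the fit where 2074 genes were called against 194, it was -1.20 with an edgeR adjusted p of 0.00145. The let-7 KO kidneys had Igfbp3 at 330, 313 and 175 CPM against 446, 360 and 316 CPM. The groups overlapped slightly, and the difference was -0.47 ± 0.25 (edgeR adjusted p = 0.531). The Igf2 to Igfbp3 read ratio was 1.7, 1.36 and 0.848 in LIN28B Wt1 kidneys against 0.224, 0.189 and 0.242, and 0.511, 0.879 and 1.91 in let-7 KO kidneys against 0.2, 0.416 and 0.274.

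Endothelial cells are a known source of Igfbp3 and Igfbp7, and their summed markers were also lower in LIN28B Wt1 kidneys. The 6 endothelial markers summed to 521 to 569 CPM against 773 to 826 CPM, with a median log2 fold change of -0.596. An edgeR p below 0.01 was reached by 5 of 6 (Pecam1, Kdr, Tek, Emcn, Plvap), beside 7.33% of all genes. None of them had an adjusted p below 0.05 by edgeR and 4 did by DESeq2, beside 1.23% and 8% of all genes. The same sum in let-7 KO kidneys was 625 to 867 CPM against 683 to 848 CPM. Proximal tubule markers summed to 1060 to 1530 CPM in LIN28B Wt1 kidneys against 2600 to 2780 CPM. The sum of the 7 stromal markers was mostly Penk, at 606 against 667 CPM in LIN28B Wt1 kidneys and 1136 against 834 CPM in let-7 KO kidneys, so the sums, 745 to 876 against 770 to 881 CPM and 1190 to 1320 against 782 to 1110 CPM, do not describe the list. In LIN28B Wt1 kidneys Foxd1, Ntn1, Meis1 and Dlk1 were higher in every mutant than in every control kidney, as were 10.3% of all genes. Their log2 fold changes were 0.70, 0.60, 0.46 and 1.14, and the list's median was 0.602, with no marker passing edgeR's adjusted threshold. The median in let-7 KO kidneys was 0.429, and Meis1 was at -0.15. Only Penk and Tbx18, the latter under 3 CPM on average, were separate there, both higher, as were 7.87% of all genes. The part of these marker differences in the member differences was not tested.

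Igfbp2 (chr1:72824503-72852474, plus strand), a binding protein high in fetal tissue, was at 176, 177 and 151 CPM in LIN28B Wt1 kidneys and at 118, 128 and 132 CPM in their littermates. Each mutant kidney was higher than each control. The log2 fold change was 0.42 ± 0.13 with an edgeR adjusted p of 0.135. Its let-7 KO values were 183, 182 and 160 CPM against 93.9, 158 and 116 CPM. Again no kidneys overlapped, though the nearest mutant and control values almost met, and the log2 fold change was 0.50 ± 0.21 (edgeR adjusted p = 0.43). Igf2 and Igfbp2 were the 2 of the 10 members whose kidneys were separate in the same direction in both models, as were 4.55% of 15136 genes tested in both, and neither difference of Igfbp2 passed edgeR's adjusted threshold.

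Igfbp5 (chr1:72857932-72874884, minus strand, next to Igfbp2) was at 210, 191 and 226 CPM in LIN28B Wt1 kidneys against 185, 161 and 180 CPM, with no overlap. Its log2 fold change of 0.26 ± 0.13 had an edgeR adjusted p of 0.346. The let-7 KO levels were 270, 228 and 173 CPM against 228, 211 and 196 CPM, a wider spread that enclosed all the controls. Igfbp4 (chr11:99041244-99054392, plus strand), the second most abundant per kb in each group, was at 732, 665 and 551 CPM in LIN28B Wt1 kidneys against 720, 825 and 832 CPM. The groups overlapped, and its log2 fold change was -0.29 (95% interval -0.59 to 0.01). Its let-7 KO values were 747, 934 and 931 CPM against 849, 847 and 717 CPM, with a difference of 0.10 (-0.27 to 0.46).

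**Figure D3:**
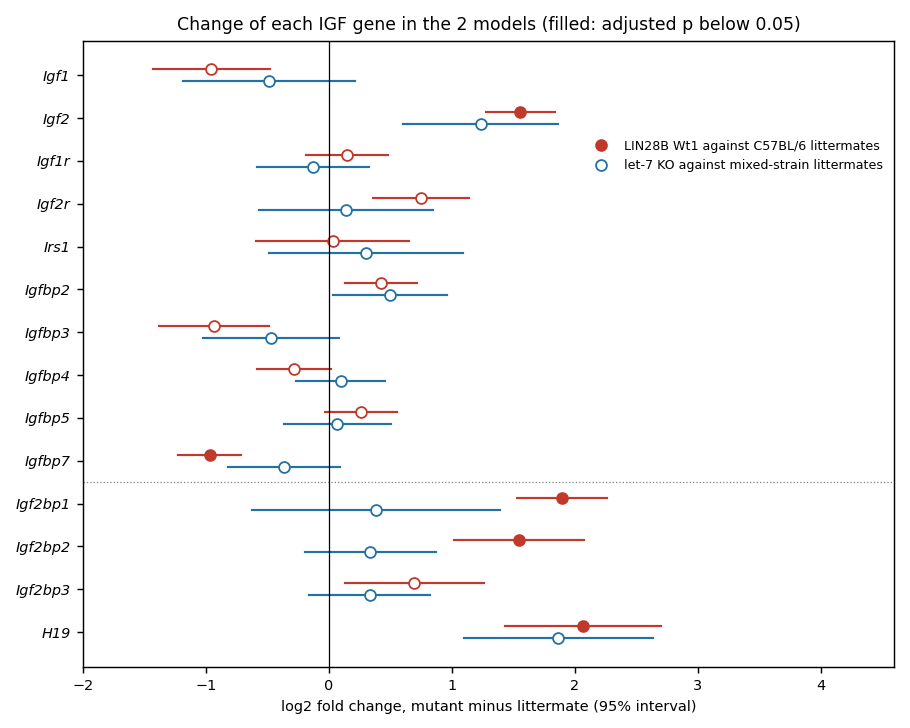
Fitted log2 fold change with its 95% interval for each member and, under the dotted line, for Igf2bp1, Igf2bp2, Igf2bp3 and H19, with filled points where the adjusted p is below 0.05. Igf2 and Igfbp7 are the 2 filled members, both in LIN28B Wt1 kidneys, at 1.56 and -0.97.

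Levels can be compared between genes only per length. In C57BL/6 littermates the order in CPM per kb of exon was Igfbp7 at 953 ± 59.8 (SD, n = 3), Igfbp4 at 180 ± 14.2, Igfbp3 at 156 ± 15.4, Igfbp2 at 68.2 ± 3.9, Igfbp5 at 29.2 ± 2.05, Igf2 at 18.4 ± 0.72, Igf1 at 7.5 ± 0.652, Igf1r at 3.83 ± 0.269, Igf2r at 3.73 ± 0.212 and Irs1 at 2.02 ± 0.599. The neighbours Igfbp4 and Igfbp3, and Igf1r and Igf2r, differed by less than the sum of their SDs. In LIN28B Wt1 kidneys Igf2, at 54.1 ± 4.07 CPM per kb, stood above Igfbp5, at 34.8 ± 2.88. Igf1, at 3.85 ± 1.08, and Igf1r, at 4.23 ± 0.449, had become neighbours within their spread, and Igf2r was above both at 6.27 ± 1.03.

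The 5 Igfbp members together had 1939, 1842 and 1821 CPM in LIN28B Wt1 kidneys against 2702, 2824 and 2673 CPM, and 2754, 2855 and 2434 CPM in let-7 KO kidneys against 3128, 3349 and 2413 CPM. The first pair of groups was apart and the second overlapped. Per kb of exon, Igfbp7 made up 56.8 to 59.3% of the 5 in LIN28B Wt1 kidneys against 67.1 to 71.3% in littermates, and Igfbp2 10.1 to 11.6% against 4.52 to 5.39%. The same shares in let-7 KO kidneys were 68.3 to 70.8% against 71.1 to 77.4% for Igfbp7 and 6.86 to 7.17% against 3.04 to 5.06% for Igfbp2. All 4 of these ranges were separate from their controls; shares of a whole are not independent of each other.

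**Figure D4:**
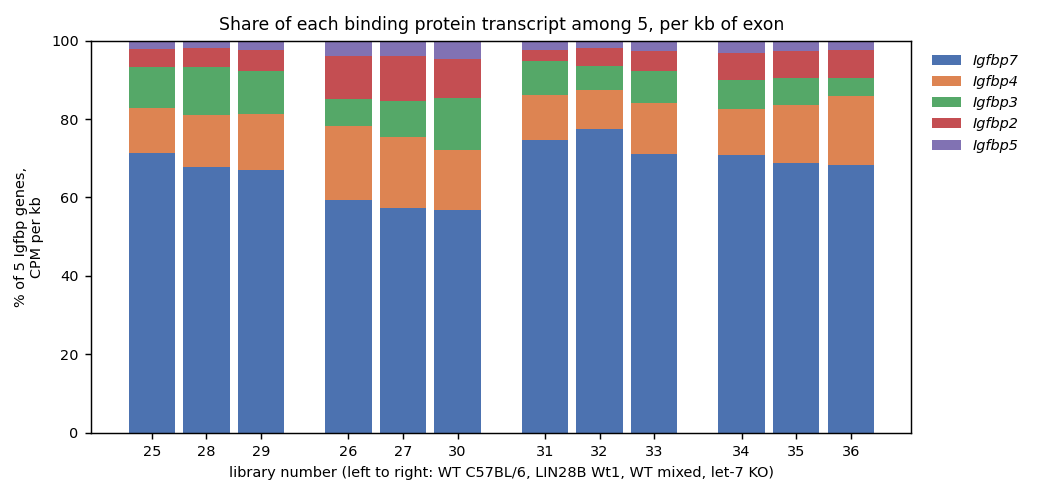
Stacked bars give, for each kidney, the percentage of each of 5 binding protein transcripts among their sum in CPM per kb of exon, with kidneys named by library number. Igfbp7 takes 56.8 to 59.3% in the 3 LIN28B Wt1 kidneys and 67.1% or more in the other 9 kidneys.

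Around Igf2 itself, H19, the non-coding RNA read from the other parental copy of the same imprinted domain, was at 777, 712 and 378 CPM in LIN28B Wt1 kidneys and at 115, 134 and 197 CPM in their littermates. It rose, with a log2 fold change of 2.06 ± 0.28 and an edgeR adjusted p of 0.0115. For let-7 KO kidneys H19 was at 264, 490 and 704 CPM against 97, 184 and 113 CPM, without overlap, at 1.87 ± 0.35. Its edgeR p was 0.000265 before and 0.239 after adjustment. DESeq2 called 1 of the 3 neighbours of Igf2 tested in that model, beside 1.52% of all genes. Igf2os, transcribed from the opposite strand across the Igf2 start, had 162, 124 and 65 reads in LIN28B Wt1 kidneys against 8, 12 and 34, and 19, 13 and 5 in let-7 KO kidneys against 46, 21 and 12. Its difference had an edgeR adjusted p of 0.203 in the first model and 0.834 in the second, and its reads cannot be told apart from those of Igf2 where they overlap. The other neighbours Ins2 and Th averaged at most 0.322 CPM in any group.

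The Igf2 mRNA-binding proteins, which bind and stabilise Igf2 and other mRNAs and carry let-7 matches of their own (5 in Igf2bp1, 2 in Igf2bp2, 1 in Igf2bp3), include the called genes nearest to the set. Igf2bp1 was at 85.7, 82 and 88.8 CPM in LIN28B Wt1 kidneys against 21, 21.7 and 26.4 CPM, and Igf2bp2 at 154, 115 and 230 CPM against 59.3, 58.1 and 54.2 CPM. Both rose, by 1.90 ± 0.16 and 1.54 ± 0.24 on the log2 scale, with edgeR adjusted p of 0.000977 and 0.0185. For Igf2bp3 the values were 47.3, 27.6 and 53.5 CPM against 28.8, 23.4 and 27.5 CPM, with an edgeR adjusted p of 0.188. None of the 3 was called in let-7 KO kidneys, by edgeR or DESeq2, none had an edgeR p below 0.05, and their median log2 fold change was 0.334. Igf2bp1 there was at 9.13, 18.1 and 39.2 CPM against 14.7, 13.7 and 21.6 CPM, lowest and highest in the same kidneys as Igf2. The test of the difference between the models gave 1.49 ± 0.53 for Igf2bp1 and 1.19 ± 0.35 for Igf2bp2, with edgeR adjusted p of 0.677 and 0.537.

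Further along the pathway, no gene of 4 other lists was called by edgeR in either model. Of 10 other binding proteins and proteases tested, 0 passed in LIN28B Wt1 kidneys, with a median log2 fold change of -0.347, and 0 in let-7 KO kidneys, with -0.521. The other receptors and adaptors had 0 of 9 called in each model (medians -0.0128 and -0.34), the PI3K-Akt-mTOR arm 0 of 20 (-0.105 and -0.121) and the growth hormone arm 0 of 5 (-0.211 and -0.367), beside medians over all genes of -0.0162 and -0.0229. At an unadjusted edgeR p below 0.05, the 4 lists in that order had 2, 1, 3 and 0 genes in LIN28B Wt1 kidneys and 3, 1, 2 and 0 in let-7 KO kidneys, where 18% and 10.8% of all genes did. DESeq2 called 1 gene of the PI3K-Akt-mTOR arm in LIN28B Wt1 kidneys and none elsewhere. At p below 0.01, these 4 lists gave 1 gene in LIN28B Wt1 kidneys, Eif4ebp1, and 1 in let-7 KO kidneys, Pappa2. Eif4ebp1, a brake on translation that mTOR releases, ranged from 107 to 151 CPM against 79.7 to 93.5 CPM, with a log2 fold change of 0.60 ± 0.16 and an edgeR adjusted p of 0.0943. The mixed-strain littermates were already at 100 to 154 CPM, and the let-7 KO difference was 0.04. Pappa2, a protease that cleaves IGF binding proteins, ranged from 0.205 to 1.82 CPM in let-7 KO kidneys against 4.57 to 14.1 CPM, at -3.26 ± 0.79 with an edgeR adjusted p of 0.358. In LIN28B Wt1 kidneys Pappa2 ranged from 1.38 to 6.65 CPM against 6.07 to 13 CPM. Next by p in LIN28B Wt1 kidneys was Stc1, an inhibitor of the PAPP-A proteases, at -0.73 (edgeR adjusted p = 0.168). Sh2b1, a receptor adaptor, Adamts1, a matrix protease, and Rictor, a subunit of mTOR complex 2, were next in let-7 KO kidneys, at -0.64, -0.66 and -0.73, with edgeR adjusted p of 0.369, 0.369 and 0.392.

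Among the cell type markers, 6 of 8 nephron progenitor markers were called in LIN28B Wt1 kidneys by edgeR at an adjusted p below 0.05. All of them were higher: Six2, Cited1, Eya1, Crym, Osr1 and Gdnf, with log2 fold changes of 3.35, 3.33, 2.04, 1.56, 1.63 and 2.16. The same threshold was passed by 1.23% of all genes, 0.462% higher. Igf2 itself is known to be expressed in nephron progenitors and stroma of the developing kidney. Of the proximal tubule markers 1 of 8 was called by edgeR in LIN28B Wt1 kidneys, the phosphate transporter Slc34a1, at -1.20. The list's median there was -0.902, and none of the 8 was higher. An unadjusted edgeR p below 0.01 was reached by 5, and DESeq2 called 5, beside 7.33% and 8% of all genes. In let-7 KO kidneys edgeR called none, and the median was -0.276 with 2 of 8 higher. There 2 had an edgeR p below 0.01, both lower, and DESeq2 called 2, beside 2.73% and 1.52% of all genes. No endothelial, stromal, podocyte, collecting duct, liver, adrenal, red blood cell or immune marker that was tested was called in either model by edgeR. Only 2 of 7 adrenal and 1 of 5 red blood cell markers were tested in each model, and 5 of 6 immune markers in let-7 KO kidneys. DESeq2 called 4 endothelial and 2 stromal markers in LIN28B Wt1 kidneys and 1 collecting duct marker in let-7 KO kidneys, beside 8% and 1.52% of all genes. Adrenal cortex markers, a tissue rich in Igf2 that lies on the kidney, summed to at most 5.07 CPM in any kidney. Liver markers summed to 172 to 371 CPM in LIN28B Wt1 kidneys against 240 to 316 CPM, and to 145 to 360 in let-7 KO kidneys against 102 to 165. Nearly all of the latter sum was Afp and Ttr, at 155 and 112 CPM against 89.7 and 44.5 CPM with overlapping groups, whereas Alb was at 2.33 against 2.54 CPM and Apoa1 at 3.29 against 2.31 CPM. In the red blood cell list, 4 globin genes were listed at 0 in every kidney.

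The models were compared with each other in 1 fit of all 12 kidneys, where the difference between the LIN28B Wt1 and let-7 KO effects was tested as an interaction. No member was called by edgeR or DESeq2, where edgeR called 0.00602% and DESeq2 0.609% of 16598 genes, and 1 member had an unadjusted edgeR p below 0.05, as did 6.27% of genes. The difference for Igf2 was 0.30 ± 0.34, with a 95% interval from -0.42 to 1.02, which includes both no gap and one nearly as large as the let-7 KO effect. That member, Igfbp7, had a p of 0.0186 before and 0.692 after edgeR's Benjamini-Hochberg adjustment, for a difference of -0.62 ± 0.24. Its fall of 0.97 in 1 model was therefore not shown to differ from the -0.37 in the other.

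The 2 control groups differ in strain mix, in the litters drawn and in library numbers (25, 28 and 29 against 31, 32 and 33), which cannot be told apart. These groups had no member called between them by edgeR or DESeq2 and none with an unadjusted edgeR p below 0.05, where edgeR called 0.627% of genes, DESeq2 2.39%, and 9.58% had such a p. Igf2 averaged 109 ± 35.8 CPM (SD, n = 3) in mixed-strain and 105 ± 4.12 CPM in C57BL/6 littermates, so that the spread, not the mean, was the larger difference between them. Igfbp3 was lower in every mixed-strain control than in every C57BL/6 control, at -0.38 on the log2 scale, and Igfbp5 higher, at 0.27, with edgeR adjusted p of 0.704 and 0.658. The let-7 KO levels of Igfbp3 thus stood against a lower baseline than those of LIN28B Wt1 kidneys.

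Across all 12 kidneys, the genes whose profile lay nearest to that of Igf2 were sought among 11821 genes with a mean of at least 5 CPM, by the root mean square (RMS) difference of log2 CPM after each gene's mean was removed. They were Des (0.267), A230065H16Rik (0.286), Gm1673 (0.292), Nme4 (0.3) and Nrtn (0.314). Des encodes the muscle and mesenchymal filament desmin, Nme4 a mitochondrial nucleoside diphosphate kinase and Nrtn the RET ligand neurturin. H19 was at rank 16 (0.378). Of the other 9 members, Igfbp2 was the nearest, at rank 561 (0.544), followed by Igf2r at 1729 and Igf1r at 2869. Igfbp7, Igfbp3 and Igf1 lay at ranks 10614, 10841 and 11037, near the far end of the 11821. Des was at 61.8 to 68.1 CPM in LIN28B Wt1 kidneys against 17.7 to 25 CPM, and at 32.3 to 45.3 CPM in let-7 KO kidneys against 18.3 to 22.8 CPM. The likeness is a description over 12 kidneys that fall in 4 groups.

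**Figure D5:**
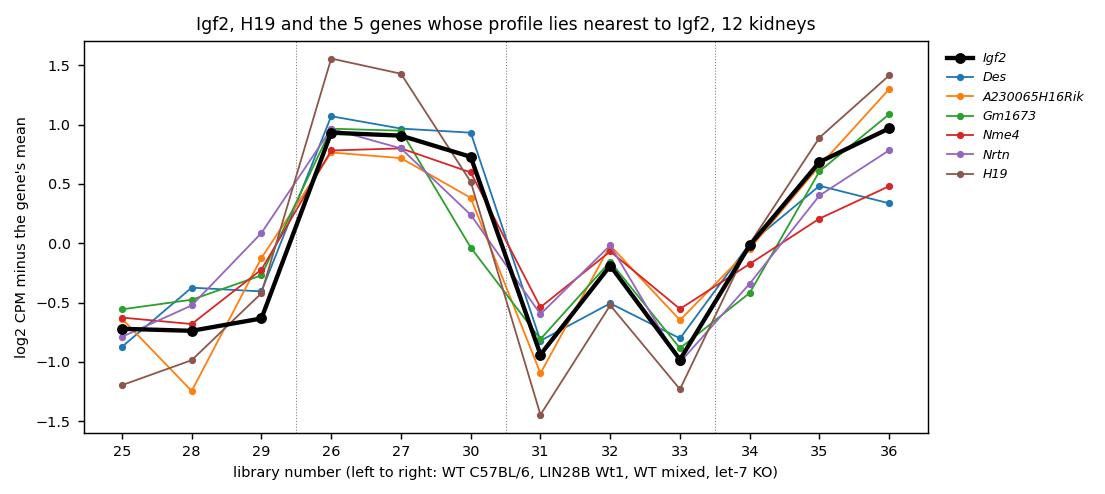
Log2 CPM minus each gene's mean for Igf2 (thick black line), H19 and the 5 genes nearest to Igf2 in each of the 12 kidneys, named by library number and ordered by group. The curves lie above 0 in the 3 LIN28B Wt1 kidneys and in libraries 35 and 36 of the let-7 KO group and below 0 in the 6 WT kidneys, except Gm1673 in library 30 (-0.04) and Nrtn in library 29 (0.09).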

How the data were processed

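Whole kidneys at P3 were sequenced by the study after Trizol extraction, with a SMARTer Ultra Low kit on an Illumina HiSeq. The authors deposited raw counts per gene symbol, 1 table per kidney, with no normalization. The submitters' processing notes name cutadapt, TopHat2 2.0.9, Bowtie2, SAMtools 0.1.19, HTSeq and mm10, without their settings, so the handling of reads shared by overlapping genes is unknown. Samples were grouped by the genotype and strain in the labels. The 6 kidneys of a model entered their own fit; edgeR 4.0.16 under R 4.3.3 filtered genes by filterByExpr (minimum count 10, minimum total 15), scaled them by TMM and tested them by quasi-likelihood, and p-values were adjusted over all genes by Benjamini-Hochberg. The SE is the absolute log2 fold change over the square root of F. The script was tested on simulated data. Alternatives were DESeq2 1.42.0, other normalizations and filters, a litter block, a transcript-length slope, a covariate from 4 Y-linked genes (none passed the filter in the C57BL/6 model), 1 fit of 12 kidneys and each kidney left out.

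The members and gene lists were chosen with earlier results of these data known. Genes outside the members are named if they are in a fixed list and were called, if they have 1 of the 5 smallest p-values per model among the IGF pathway lists, or if they are 1 of the 5 nearest to Igf2; Igf2bp1, Igf2bp2, Igf2bp3 and H19 are always named, and Hmga2, Lin28b and Mirlet7d serve as checks of the labels. Sums and 3-count floors cover counting error only. The labels number litters within a strain. Mutant and control kidneys of the same number were assumed to share a litter, because the controls are described as littermates. The litter block rests on this pairing. For mutant and control pairs, the mean correlation of deviations was -0.0387 within and 0.0483 between litters in the first model. In the other it was -0.00115 and 0.00161. It was not higher within litters in either, and gives the pairing no support. Lengths and UTRs came from GENCODE M21, which matched 22708 symbols (94.4%). The let-7 match search is not reported here for 1 member.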

Additional observations from a re-analysis of the deposited data

How the results depend on the processing

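The direction and call of Igf2 in LIN28B Wt1 kidneys held under every alternative run (log2 fold change 1.52 to 1.61, edgeR or DESeq2 adjusted p at most 0.0187). The number of members called there, 2 as reported, was 6 with DESeq2, 5 with a filter of at least 1 CPM in every kidney and 7 with the transcript-length slope, where all genes called numbered 1264, 401 and 1309 against 194; it ran from 1 to 6 with 1 kidney left out. It was 1 without library 25, 27 or 28 and 6 without library 30, where 2074 genes were called. In let-7 KO kidneys 1 member, Igf2, was called by DESeq2 (1.26), which called 235 of 15500 genes; the number with p below 0.01 ran from 1 to 2 with 1 kidney left out. With litter as a replicate block (Igf2 1.56 and 1.22; 2 and 0 members called) no call of a member changed, while all genes called went from 194 to 95 and from 3 to 0.

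Igfbp4 in let-7 KO kidneys turned to -0.0734 with the length slope. Between the control groups, Igf2 was -0.0424 with that slope and -0.0839 with the Y-linked covariate, and Igfbp4 was -0.00608 with the litter block, -0.0016 with the slope and -0.0174 with the covariate. With 1 kidney left out, differences that crossed 0 ranged as follows. In LIN28B Wt1 kidneys Irs1 ran from -0.17 to 0.23. In let-7 KO kidneys Igf1r ran from -0.24 to 0.0109, Igf2r from -0.37 to 0.36, Igfbp5 from -0.11 to 0.23 and Irs1 from -0.0461 to 0.53. Between models Igf2 ran from -0.00529 to 0.53 (lowest without library 32), Igfbp2 from -0.32 to 0.0691 and Irs1 from -0.51 to 0.0763. Between controls Igf1 ran from -0.0674 to 0.20, Igf2 from -0.26 to 0.18, Igf1r from -0.21 to 0.0233, Igfbp2 from -0.26 to 0.11 and Igfbp4 from -0.0433 to 0.097. The cause of these changes was not tested, whether or not the number of genes called moved with them. The same 5 genes were nearest to Igf2 at a mean of at least 1 CPM, and 5 of 9 members held a let-7 match over all transcripts.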
